A study of Mus musculus with 16 samples.

Results

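The regions described here are 1460 peaks of EZH2, the catalytic subunit of Polycomb repressive complex 2 (PRC2), that lay in H3K27me3 in untreated macrophages and were met again by an EZH2 peak after LPS priming and nigericin. They were chosen from chromatin immunoprecipitation sequencing (ChIP-seq) peak lists by overlap. A peak of the untreated EZH2 list on chromosomes 1 to 19 or X was a member if it shared at least 1 bp with an H3K27me3 peak and at least 1 bp with an EZH2 peak of the nigericin library. The members were 1460 of 9581 untreated EZH2 peaks (15.2%, Wilson 95% interval 14.5 to 16.0%). They are called kept peaks below, and the 2593 untreated EZH2 peaks in H3K27me3 that no nigericin peak overlapped are called lost peaks. Both words describe the presence of a call in a list and carry no measure of change.

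All cells were primary macrophages of C57BL/6 mice, grown for 5 days from bone marrow out of the long bones of adult mice in DMEM with M-CSF conditional medium, M-CSF being the cytokine on which macrophages depend. EZH2 was immunoprecipitated from wild-type macrophages given nigericin after LPS priming, and from untreated wild-type macrophages. LPS is the bacterial lipopolysaccharide that primes these cells, and nigericin is an ionophore that causes potassium efflux, a trigger of the NLRP3 inflammasome. No library of cells given LPS alone was used here, so the parts of LPS and of nigericin cannot be told apart. H3K27me3, H3K27ac and p53 were mapped in untreated wild-type macrophages, so the mark itself was not measured after nigericin here. The antibodies were from CST, except that against H3K27ac, from Abcam. SIRT1, an NAD-dependent deacetylase, was mapped in untreated macrophages of 4 genotype groups, Ezh2 knock out, its wild type, p53 knock out and its wild type. How the alleles were knocked out, and in which cells, is not given in the sources used here, and a SIRT1 peak list gives no check of either deletion. Each group held 1 library, so no difference between groups has a replicate check, no test was run, and every interval covers counting error only.

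PRC2 places methyl groups on lysine 27 of histone H3, and the trimethylated form, H3K27me3, marks genes held silent. In mammals PRC2 sits mainly at CpG islands of developmental genes that the cell type does not use, and the mark spreads from there over broad domains. Its partner complex, PRC1, reads the mark through CBX proteins and holds subunits such as BMI1. H3K27ac lies on the same lysine at active promoters and enhancers, and a single lysine cannot carry both.

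The sequences that best show what these regions are made of were promoters lying wholly inside a kept peak and its nigericin peak, of which there were 113. Below, 4 with high EZH2 folds in untreated cells are shown beside those of Hdgfl3 and Bsn, which lay wholly inside strong lost peaks. Each is the 250 bases before an annotated start of the gene, 5′ to 3′ on the gene's strand, from RefSeq on GRCm38.p6, with each CpG dinucleotide in capitals.
Foxi3 promoter: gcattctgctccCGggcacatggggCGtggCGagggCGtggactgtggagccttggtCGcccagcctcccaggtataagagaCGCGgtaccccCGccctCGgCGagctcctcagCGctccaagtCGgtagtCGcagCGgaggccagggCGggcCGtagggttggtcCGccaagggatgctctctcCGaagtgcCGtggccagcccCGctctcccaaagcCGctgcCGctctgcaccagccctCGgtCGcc
Foxa2 promoter: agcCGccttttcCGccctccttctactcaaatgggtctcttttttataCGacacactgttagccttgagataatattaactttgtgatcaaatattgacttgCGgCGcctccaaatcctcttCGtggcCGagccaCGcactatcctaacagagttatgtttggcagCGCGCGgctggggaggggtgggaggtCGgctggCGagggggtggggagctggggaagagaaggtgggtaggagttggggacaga
Sox21 promoter: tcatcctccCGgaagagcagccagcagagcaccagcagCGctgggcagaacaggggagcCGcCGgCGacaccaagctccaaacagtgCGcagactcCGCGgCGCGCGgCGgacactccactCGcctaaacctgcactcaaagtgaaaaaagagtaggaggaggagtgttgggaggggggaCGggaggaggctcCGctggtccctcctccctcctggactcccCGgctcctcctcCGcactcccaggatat
Olig2 promoter: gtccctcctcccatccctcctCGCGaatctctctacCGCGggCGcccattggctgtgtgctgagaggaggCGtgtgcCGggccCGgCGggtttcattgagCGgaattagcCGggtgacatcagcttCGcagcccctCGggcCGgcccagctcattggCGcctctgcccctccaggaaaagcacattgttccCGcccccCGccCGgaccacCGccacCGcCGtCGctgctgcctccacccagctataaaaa
Hdgfl3 promoter: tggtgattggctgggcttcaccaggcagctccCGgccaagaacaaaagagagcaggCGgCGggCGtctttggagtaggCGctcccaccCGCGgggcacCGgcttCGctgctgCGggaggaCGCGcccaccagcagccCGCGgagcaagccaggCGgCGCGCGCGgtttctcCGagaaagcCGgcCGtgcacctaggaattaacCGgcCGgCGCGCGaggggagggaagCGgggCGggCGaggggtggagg
Bsn promoter: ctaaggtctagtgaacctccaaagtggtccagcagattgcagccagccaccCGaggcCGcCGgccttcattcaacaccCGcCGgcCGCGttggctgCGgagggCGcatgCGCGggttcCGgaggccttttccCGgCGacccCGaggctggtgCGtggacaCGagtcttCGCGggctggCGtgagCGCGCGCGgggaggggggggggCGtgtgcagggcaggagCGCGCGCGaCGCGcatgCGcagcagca
Foxi3, a forkhead factor of the cranial placodes, has this promoter at chr6:70956356-70956605 on the plus strand with 24 CpGs. That of Foxa2, a pioneer factor of the endoderm, lies at chr2:148045465-148045714 on the minus strand and holds 13 CpGs. It precedes an annotated start within the gene's bounds, chr2:148042877-148046969, and not the outermost start. Sox21, a factor of neural progenitors, has its window at chr14:118237031-118237280 on the minus strand with 17 CpGs. Olig2, a factor of motor neuron and oligodendrocyte precursors, has its window at chr16:91225300-91225549 on the plus strand with 22 CpGs. The windows of the lost peaks held 30 CpGs for Hdgfl3, at chr7:81934460-81934709 on the minus strand, and 32 for Bsn, which encodes a presynaptic scaffold, at chr9:108190384-108190633 on the minus strand. Other windows inside strong peaks ran across the same counts, with 30 CpGs at Syt2 and at Emx1 in kept peaks and 24 at Col8a2 in a lost peak, so these few windows set no order between kept and lost peaks. The whole sets are compared further on.

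The mature microRNAs whose hairpins lay inside kept peaks are described next. Of 1005 mouse hairpins in the RefSeq table, 10 overlapped a kept peak (0.995%, 0.541 to 1.82%), against 4 in lost peaks (0.398%, 0.155 to 1.02%). These intervals overlapped, and some hairpins shared a peak. H3K27me3 peaks of any kind held 10.9% of the hairpins, so the counts are only a description. Mature sequences of the families that the kept peaks held are given 5′ to 3′, with the seed, bases 2 to 8, in capitals.
miR-196a-5p: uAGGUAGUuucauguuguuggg
miR-196b-5p: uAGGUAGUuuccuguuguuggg
miR-9-5p: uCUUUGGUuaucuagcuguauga
miR-9-3p: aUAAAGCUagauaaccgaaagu
miR-129-5p: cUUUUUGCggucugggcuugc
The hairpins of miR-196b, in the Hoxa9 peak at chr6:52223020-52231905, and of miR-196a-2, in a peak at an end of Hoxc9 at chr15:102972173-102977308, share the seed AGGUAGU. This family lies inside Hox clusters and targets Hox messages. Folds are ratios of the fragments at a peak's summit to its local background, with 1 added to each, as the authors' caller gave them. The miR-196b peak had an EZH2 fold of 3.33 after nigericin, against 6.26 in untreated cells, at summits 1897 bp apart, and the miR-196a-2 peak had 4.1 after nigericin, against 3.47 in untreated cells. The 2 peaks thus differed in which library had the higher fold. Of the hairpins with the neural seed CUUUGGU of miR-9-5p, Mir9-1 and Mir9-3 lay in kept peaks and Mir9-2 in a lost peak, 977 bp from a kept one. The peak over Mir9-3 had folds of 3.01 after nigericin and 3.41 untreated, and that over Mir9-1 2.45 after nigericin and 2.49 untreated. Mir129-2 and Mir129b are hairpins on opposite strands of 1 peak at chr2:94241191-94241888, with folds of 3.25 after nigericin and 1.93 untreated. The remaining hairpins of these 10 were Mir3093 and the miR-9b hairpin, both in the Mir9-1 peak, Mir1895 and the miR-9718 hairpin. The hairpin table does not cover every microRNA gene, so 10 may be an undercount. By gene bounds, 18 microRNA genes had a kept peak within 1 kb. Mir124a-3, named further on, had a kept peak but is not among the 10, nor among the 3 other hairpins within 1 kb of one.

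The EZH2 lists were shallow, which bears on every count below. The nigericin list held 5054 peaks and the untreated list 9581 on these chromosomes. Both had been limited at a p-value of 0.01 with no limit on q, the p-value adjusted over all sites, and 756 nigericin peaks and 1731 untreated peaks had a q of at most 0.05. The weakest peaks rested on 7 fragments in either list, and the most common local background was 2.34 fragments in the nigericin list and 2.74 in the untreated list. The histone lists were deeper, with 88037 H3K27me3 and 51582 H3K27ac peaks, all at a q of at most 0.05. The macrophage label was borne out by H3K27ac within 1 kb of the gene for 20 of 20 macrophage markers, against 1 of 10 neutrophil, 0 of 10 erythroid, 2 of 10 lymphoid and 3 of 10 stromal markers. None of the 20 macrophage markers had a kept EZH2 peak, where 3.29% of all protein-coding genes did, so a list of this size would hold fewer than 1 at that share.

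Within H3K27me3, 36.0% of the untreated EZH2 peaks were kept (1460 of 4053, 34.6 to 37.5%), where 16.6% of all 9581 untreated peaks overlapped a nigericin peak. Outside H3K27me3 the share was 2.33% (129 of 5528, 1.97 to 2.77%). H3K27me3 itself held 42.3% of all untreated EZH2 peaks. Read from the other side, 1637 of the 2696 nigericin peaks in H3K27me3 (60.7%) met a kept peak. These shares are those that the rule fixes and are given as a description.

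The share kept moved with the strength of the untreated peak. It was 18.8% (325 of 1726) where the −log10 q of the untreated peak was under 0.5, 44.8% (337 of 753) between 1.3 and 3, and 89.4% (84 of 94) at 10 and above. Of the kept peaks, 60.6% had an untreated q of at most 0.05, against 23.6% of the lost peaks. The kept peaks were also wider, with a median of 1180 bp against 510 bp for lost peaks, and a wide peak has more room to be met. By width, the share kept was 13.9% under 500 bp, 31.0% between 500 and 1000 bp, 55.7% between 1000 and 2000 bp and 87.4% above that.

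**Figure D1:**
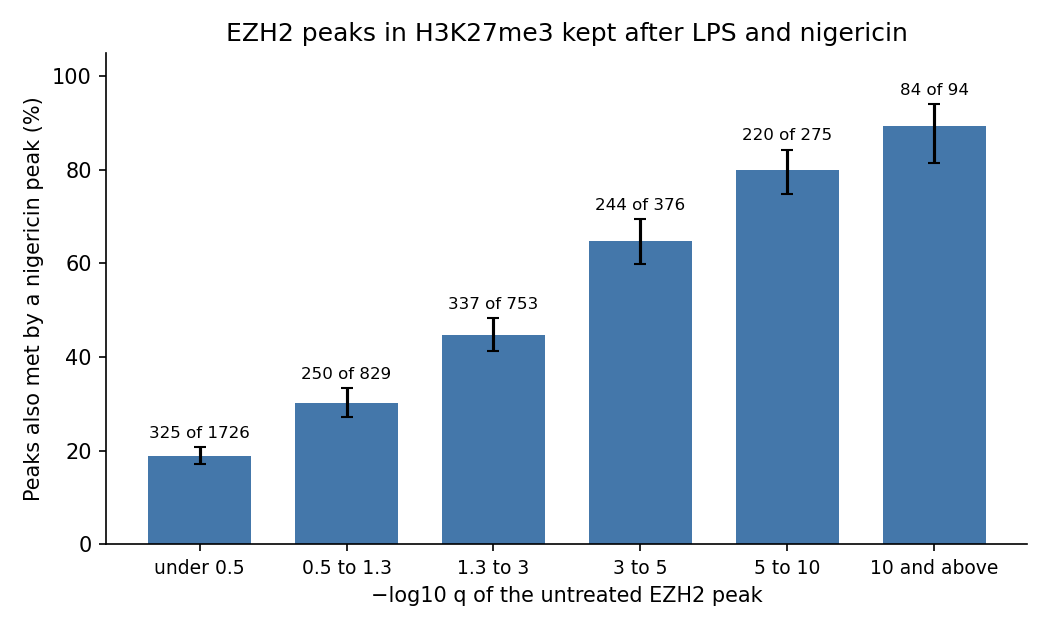
Share of untreated EZH2 peaks in H3K27me3 that a nigericin EZH2 peak overlapped (vertical axis, percent) by the −log10 q of the untreated peak (horizontal axis); bars are shares, whiskers Wilson 95% intervals and labels the counts. The share was 18.8% in the weakest class and 89.4% in the strongest.

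The threshold of the rule is 1 bp, and some members sat at it. The kept peak at C1ql3, which encodes a secreted synaptic protein, met its nigericin peak over 1 bp, that at Fibcd1 over 2 bp and that at Zic5, a zinc finger factor of the neural tube, over 5 bp. On the other side of the line, a lost peak inside Gad2, which encodes a GABA-synthesising enzyme, lay 1 bp from a nigericin peak, and lost peaks at Adgrg1 and Vldlr lay 2 bp and 5 bp away. Among all lost peaks, 11.5% lay within 500 bp and 20.6% within 1000 bp of a nigericin peak. The median kept peak was covered over 57.4% of its length, and all kept peaks together spanned 2.39 Mb, of which 55.9% was covered. More than 1 nigericin peak met 18.1% of the kept peaks, in which case the highest nigericin fold was used.

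Both folds of the kept peaks lay in the same range. The nigericin fold had a median of 2.89 (quartiles 2.36 and 3.59, highest 7.48), and the untreated fold a median of 3.13 (quartiles 2.57 and 3.87, highest 9.37). The ratio of the nigericin to the untreated fold had a median of 0.918, with quartiles of 0.723 and 1.16. The nigericin fold was the higher one in 606 kept peaks (41.5%), against 42.7% of all 1589 untreated peaks met by a nigericin peak. Each fold is relative to its own library's background and the rule used both, so these ratios are a description and no measure of EZH2 occupancy. Where both peaks had a q of at most 0.05 (400 kept peaks), the median ratio was 0.986 and the nigericin fold was the higher one in 49.0%. By strength the median ratio went with the class, at 1.23 for an untreated −log10 q under 0.5 and 0.57 at 10 and above. The untreated fold stands in both the class and the ratio, so nothing is read from that order.

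**Figure D2:**
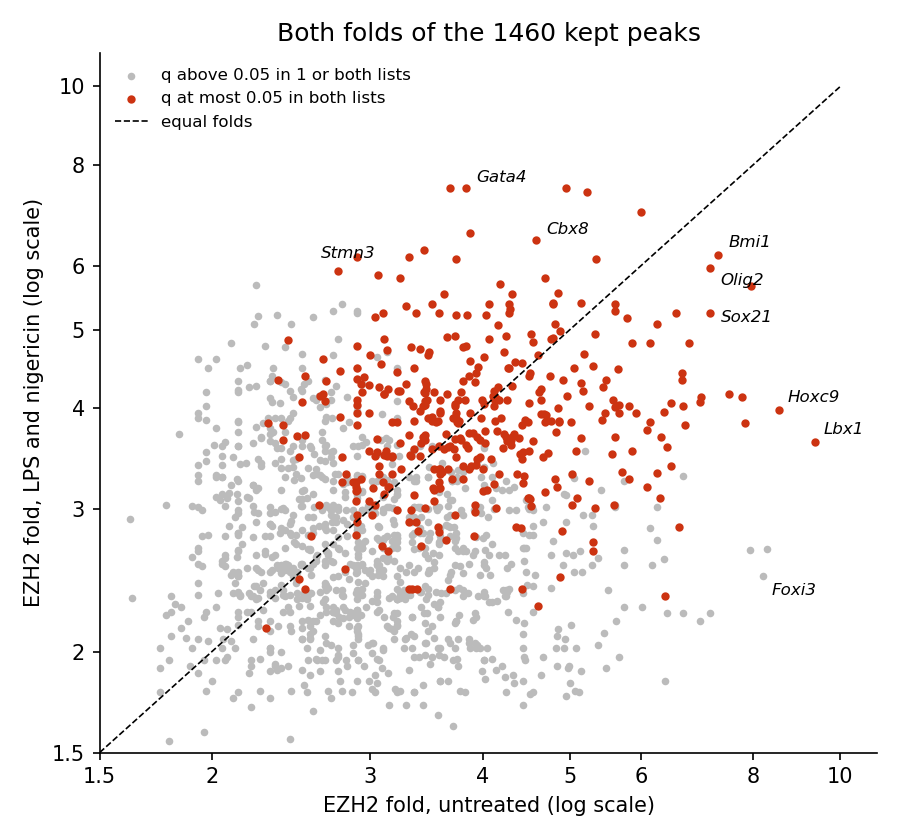
EZH2 fold after LPS and nigericin (vertical axis, log scale) against EZH2 fold in untreated cells (horizontal axis, log scale) for each of the 1460 kept peaks. Red points have a q of at most 0.05 in both lists, grey points do not, and the dashed line marks equal folds; 606 kept peaks lie above it, among them Stmn3. The folds of a pair are those at each peak's own summit, which for Gata4, Cbx8 and Lbx1 lay more than 1000 bp apart.

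The summits of the paired peaks were near each other rather than at one base. The median distance was 393 bp, 18.8% of the pairs had summits within 100 bp, 59.0% within 500 bp and 80.9% within 1000 bp. The untreated summit itself lay inside a nigericin peak in 62.1% of the kept peaks, and the nigericin summit lay outside the kept peak in 26.2% (382 of 1460). Each fold and fragment count is measured at its own summit, so a pair with distant summits sets values of different sites side by side. Over the 861 pairs with summits within 500 bp, the median fold ratio was 0.888 and the nigericin fold was the higher one in 39.1%. Of the genes given below with both folds, the summits were more than 1000 bp apart at Lbx1, Gata6, Gata4, Cbx8, Bsx, Hoxa13, Hoxc13, Hoxc11, Nkx2-4, Tbx2, Pdgfra, Slc32a1 and 1 of the peaks at Cux2.

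Of the 20 highest untreated folds among kept peaks at named genes, 7 were at genes of the 9 lists of developmental regulators described further on, and others were at genes outside them, such as Rims2, Syt2 and Col2a1, which encodes a cartilage collagen. The highest untreated fold was at Lbx1, a homeobox factor of limb muscle precursors and spinal interneurons, in the peak chr19:45228443-45238778. It had a fold of 3.63 after nigericin, against 9.37 untreated, on 21 fragments after nigericin (exact Poisson 95% interval 13.0 to 32.1) and 48 untreated (35.4 to 63.6). Its summits lay 4519 bp apart within this wide peak, so these are values of different sites. Hoxc9, a trunk patterning gene, had a peak at chr15:102981550-102984346 with a fold of 3.98 after nigericin on 26 fragments (17.0 to 38.1), against 8.55 untreated on 56 fragments (42.3 to 72.7). Here the summits were 113 bp apart and the fragment intervals of the libraries did not overlap, but fragment counts are not scaled for depth. Rims2, a scaffold of the presynaptic active zone, had a fold of 2.68 after nigericin, against 8.29 untreated.

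At the forkhead genes near the top of the untreated list, the nigericin fold was the lower one. Genes here and in the paragraph before were chosen for high untreated folds. That choice favours a lower nigericin fold, so nothing is read from the direction. Foxi3 had a fold of 2.48 after nigericin on 24 fragments (15.4 to 35.7), against 8.2 untreated on 34 fragments (23.5 to 47.5). Foxa2 had 2.67 after nigericin on 15 fragments (8.40 to 24.7), against 7.94 untreated on 29 (19.4 to 41.6). Their fragment intervals overlapped, and the −log10 q of the nigericin peak was 1.06 at Foxi3 and 0.477 at Foxa2, so neither passed a q of 0.05 in the nigericin list. Foxd3, a neural crest factor, had 3.84 after nigericin, against 7.83 untreated, and its nigericin −log10 q was 4.04. Gata6, a factor of endoderm and heart that also marks resident macrophages of the mouse peritoneum, had 4.16 after nigericin, against 7.52 untreated.

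At other genes both libraries gave a strong peak. Bmi1, which encodes a PRC1 subunit, had a fold of 6.18 after nigericin on 46 fragments (33.7 to 61.4), against 7.31 untreated on 52 (38.8 to 68.2). Olig2 had 5.96 after nigericin on 30 fragments (20.2 to 42.8), against 7.17 untreated on 41 (29.4 to 55.6). Sox21 had 5.24 after nigericin on 29 fragments (19.4 to 41.6), against 7.17 untreated on 39 (27.7 to 53.3). The fragment intervals of the libraries overlapped at all 3 of these genes. Erfl had 5.67 after nigericin, against 7.96 untreated.

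The highest nigericin folds were in part measured away from the untreated summit. Choice by a high nigericin fold likewise favours a lower untreated fold. A peak at Gata4, a factor of heart and gonad, at chr14:63269567-63270800, had a fold of 7.48 after nigericin on 25 fragments (16.2 to 36.9), against 3.83 untreated on 22 (13.8 to 33.3). The nigericin summit lay outside this kept peak, 1758 bp from the untreated one, and the same nigericin peak met 3 kept peaks with untreated folds of 3.68 to 4.95. Within the Gata4 cluster of kept peaks the highest untreated fold was 6.17. Cbx8, the PRC1 subunit that reads H3K27me3, had 2 kept peaks. The one within 1 kb of its start, 7520 bp wide, lay outside the gene and did not reach the start. It had a fold of 6.46 after nigericin, against 4.59 untreated, at summits 4854 bp apart, so the nigericin value was not measured at the start. The one at its other end had 4.47 after nigericin, against 5.66 untreated. Bsx, a homeobox gene of the hypothalamus, had 6.16 after nigericin, against 3.31 untreated, at summits 1957 bp apart. Pax6, the eye and forebrain regulator, had 5.79 after nigericin, against 4.69 untreated, at summits 169 bp apart. At Cux2, a factor of upper-layer cortical neurons, and at Hoxa13, a gene of the distal limb, 2 kept peaks met the same nigericin peak, so their nigericin fold of 6.11 at Cux2 and 5.38 at Hoxa13 is 1 value counted for both.

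Among the peaks with a q of at most 0.05 in both lists, the fold ratio ran between 0.366 and 2.14. The highest was at Stmn3, which encodes a neuronal microtubule regulator, with a fold of 5.92 after nigericin on 22 fragments (13.8 to 33.3), against 2.76 untreated on 19 (11.4 to 29.7). Otx1, a forebrain homeobox gene, had 4.86 after nigericin, against 2.43 untreated, and the adhesion gene Pcdh1 had 5.85 after nigericin, against 3.06 untreated. The lowest ratio was at Scrt1, a neuronal repressor of the Snail family, with 2.34 after nigericin on 38 fragments (26.9 to 52.2), against 6.39 untreated on 43 (31.1 to 57.9). Mir124a-3, a gene of the neuronal microRNA miR-124, had 2.85 after nigericin, against 6.62 untreated, and Dlx2, of forebrain interneurons, had 2.73 after nigericin, against 5.31 untreated. At Stmn3 and at Scrt1 alike, the fragment intervals of both libraries overlapped.

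The kept peaks sat in broad and strong H3K27me3. They lay in 952 of 88037 H3K27me3 peaks. The H3K27me3 peak around a kept peak had a median width of 11500 bp, against 5970 bp around a lost peak, where the median over all H3K27me3 peaks was 727 bp. A wide H3K27me3 peak has more room to hold EZH2 peaks of either kind, and 436 of the 952 held lost peaks too, so these widths are a description. The H3K27me3 fold was also higher at kept than at lost peaks within each class of untreated strength, with medians of 8.89 against 6.49 in the weakest class, 9.14 against 7.41 at a −log10 q of 1.3 to 3, and 10.5 against 7.14 in the strongest. The strongest class held 84 kept and 10 lost peaks. Width was not matched, with median EZH2 widths of 604 against 452 bp in the weakest class and 3530 against 1700 bp in the strongest. The fold is the highest of any H3K27me3 peak met, and EZH2 peaks in 1 domain share it. These medians are therefore a description too. Kept and lost peaks shared domains, since 27.8% of the lost peaks lay in an H3K27me3 peak that also held a kept one.

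Within 10 kb of each other, the kept peaks fell into 836 clusters. Of the 1460, 532 stood alone and 287 lay in 41 clusters of 5 or more. The largest clusters lay in the Hox loci, whose homeobox genes set position along the body axis. The Hoxc cluster, from Hoxc13 to Hoxc6 with the long non-coding RNA Hotair, held 32 kept peaks over 85.5 kb (chr15:102917337-103002844), the Hoxd cluster with Evx2 held 14 over 52.1 kb, the Hoxa cluster 13 over 61.2 kb and the Hoxb cluster 12 over 49.3 kb. Gata4 followed with 9, and Pax6, Lhx5 and Gata3 with 8 each. The single H3K27me3 peak over Hoxc was 140 kb wide with a fold of 11.4, and held 36 kept and 15 lost EZH2 peaks. A further cluster of 8 lay on chromosome 3 over tRNA genes, which are multi-copy sequences whose reads may not be assigned to 1 place. The same holds for kept peaks at 5S rRNA genes on chromosome 8. By chromosome, the kept share of EZH2 peaks in H3K27me3 was 28.3 to 44.7% on the autosomes, with 192 kept peaks on chromosome 2. It was 5.26% on X, where 2 of 38 were kept.

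Most kept peaks lay at genes. Within 1 kb of a gene's start or end were 67.9% of the kept peaks (991 of 1460, 65.4 to 70.2%), against 52.3% of lost peaks and 29.2% of all untreated EZH2 peaks. Within 1 kb of an annotated start were 42.1% of kept peaks (614, 39.5 to 44.6%), against 32.4% of lost peaks and 16.7% of all. These shares moved with width. Under 500 bp, 27.7% of kept (22.0 to 34.3%) and 24.8% of lost peaks (22.5 to 27.3%) lay at a start, and above 2000 bp 54.9% of kept (50.1 to 59.7%) and 58.3% of lost peaks (45.7 to 69.9%) did. In each of the 4 width classes the intervals of kept and lost peaks overlapped. Of the other kept peaks, 298 lay inside a gene and 171 outside genes.

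The summits lay more often downstream than upstream of a start. After nigericin, 19.5% of the kept peaks had their summit 0 to 1 kb downstream of the nearest start (17.6 to 21.6%) and 11.6% that far upstream (10.1 to 13.4%). In untreated cells, 22.2% of the kept peaks had it downstream (20.1 to 24.4%) and 11.5% upstream (9.97 to 13.2%). The lost peaks had 17.4% downstream and 10.6% upstream. Starts were known for the 26794 genes of the RefSeq promoter table.

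**Figure D3:**
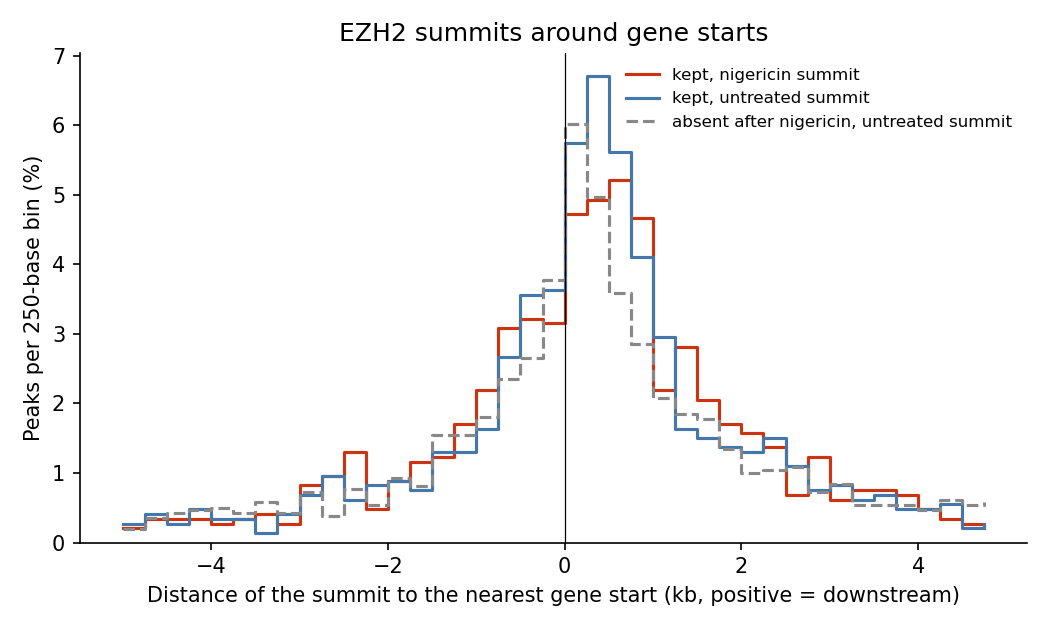
Share of EZH2 summits per 250-base bin (vertical axis, percent) by distance to the nearest gene start (horizontal axis, kb, positive values downstream), for kept peaks after nigericin, kept peaks in untreated cells and lost peaks in untreated cells. In all 3 lines the region just downstream of the start holds more summits than the region just upstream.

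The kept peaks marked 1007 genes within 1 kb of a start or end, which is 2.03% of 49554 genes, 711 of them among 21631 protein-coding genes (3.29%). Of the rest, 235 were long non-coding RNA genes. H3K27ac lay within 1 kb of 40 of these 1007 genes (3.97%, 2.93 to 5.36%), against 6.37% of the 1162 genes with lost peaks only and 18.6% of all genes. Both sets of genes were chosen through H3K27me3, which favours a lower share than in all genes. In 9 lists of developmental regulators, 121 of 234 genes had a kept peak (51.7%, 45.3 to 58.0%) and a further 45 had lost peaks only (19.2%). H3K27me3 lay at 217 of the 234 (92.7%) and H3K27ac at 9 (3.85%). The lists were chosen with results of these data known, so these shares describe them and are not independent evidence. At a q of at most 0.05 in both EZH2 lists, 67 of the 234 had a kept peak.

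**Figure D4:**
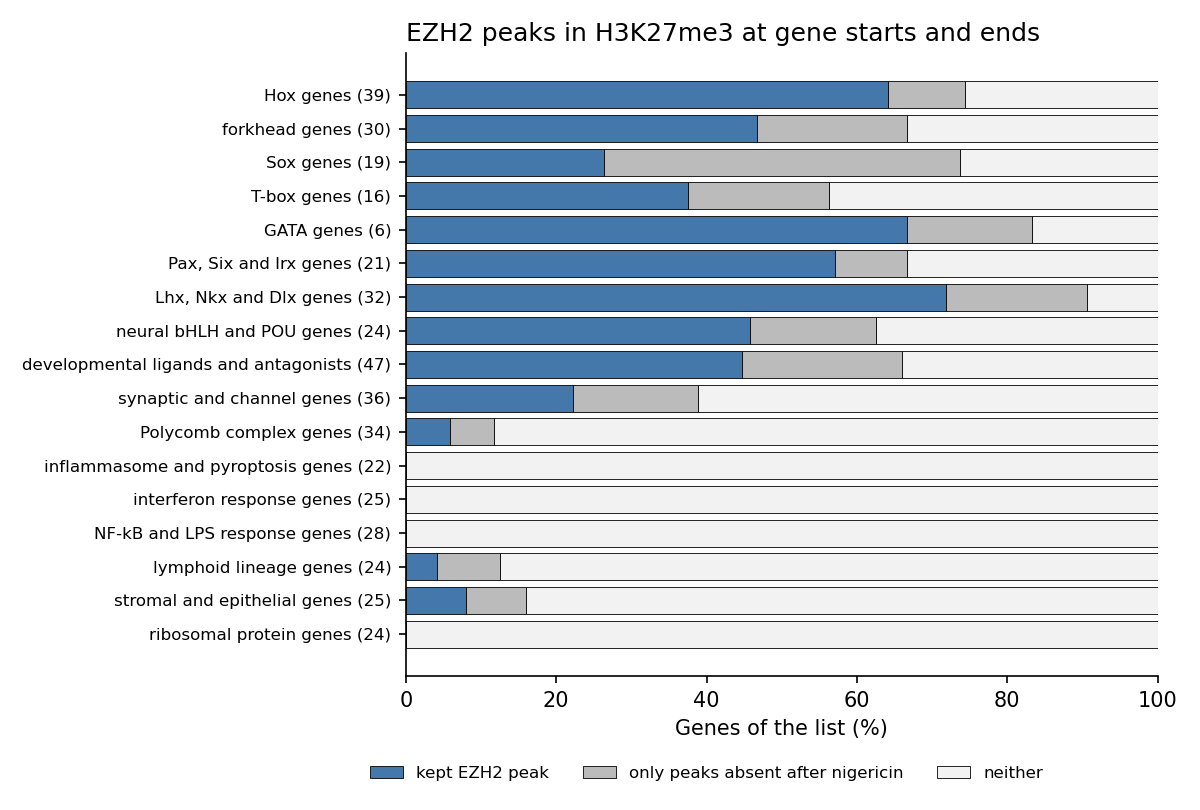
Share of the genes of each list (horizontal axis, percent; number of genes in brackets) with a kept EZH2 peak, with lost peaks only, or with neither within 1 kb of the gene's start or end. The developmental lists reach 71.9% for the Lhx, Nkx and Dlx genes, and the inflammasome, interferon, NF-kB and ribosomal protein lists are at 0.

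Of 39 Hox genes, 25 had a kept peak (64.1%) and 4, Hoxa3, Hoxb1, Hoxc4 and Hoxd8, had lost peaks only. Values of a gene with several kept peaks are those of the peak with the highest untreated fold, here and in the lists that follow, so no count of ratios is read from them. Hoxc13 had 5.25 after nigericin, against 6.56 untreated, at summits 3569 bp apart. Hoxd13 had 2.38 after nigericin, against 5.52 untreated. Hoxc11 had 5.2 after nigericin, against 2.25 untreated, at summits 3393 bp apart in a peak 6195 bp wide, and its untreated −log10 q was 0.524. The 10 genes without either kind of peak, Hoxb3, Hoxb4 and Hoxd4 among them, were mostly at the anterior ends of the clusters, and H3K27me3 lay at 9 of these 10, Hoxb4 being the other. Neighbouring genes shared peaks, as Hoxa9 with Hoxa10 and Hoxd10 with Hoxd11.

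The Lhx, Nkx and Dlx genes, homeobox factors of brain, spinal cord and organ buds, had the highest share, 23 of 32 (71.9%), and all 32 had H3K27me3. Nkx2-4, a hypothalamic gene, had 3.58 after nigericin, against 6.42 untreated. Dlx3, of skin and placenta, had 4.81 after nigericin, against 5.87 untreated. Only Isl1, Nkx2-9 and Nkx6-3 had neither a kept nor a lost peak. Of the Pax, Irx and sine oculis homeobox genes 12 of 21 had a kept peak (57.1%), with Six2, a kidney progenitor factor, at 3.54 after nigericin and 5.87 untreated. Of the 6 GATA genes, Gata2, Gata3, Gata4 and Gata6 had one, Gata5 had lost peaks only, and Gata1, the erythroid factor, had neither. Gata3, a factor of T cells, had a fold of 5.28 after nigericin, against 2.73 untreated, and Gata2, of blood progenitors, had 2.38 after nigericin, against 2.26 untreated.

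Forkhead genes had 14 of 30 with a kept peak (46.7%), neural bHLH and POU genes 11 of 24 (45.8%), and developmental ligands and antagonists 21 of 47 (44.7%). Gdf7, a BMP family ligand of the roof plate, had 4.3 after nigericin, against 5.15 untreated, and Nog, a BMP antagonist, had 2.13 after nigericin, against 4.85 untreated. T-box genes had 6 of 16 (37.5%). Tbx2 had 4.67 after nigericin, against 5.19 untreated. The Sox genes stood lowest of the 9, with 5 of 19 kept (26.3%) and 9 with lost peaks only, among them Sox1, Sox2 and Sox17. These lists hold few genes, and the differences between their shares were not tested. Synaptic and channel genes had 8 of 36 (22.2%), led by Rims2.

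Counts in the macrophage response lists were 0, where 3.29% of all protein-coding genes had a kept peak and lists of this size would hold fewer than 1 at that share. None of 22 inflammasome and pyroptosis genes, 28 NF-kB and LPS response genes, 25 interferon response genes or 24 ribosomal protein genes had a kept or a lost peak. In untreated cells H3K27ac lay at 19 of the inflammasome, 24 of the NF-kB and LPS response, 24 of the interferon response and 20 of the ribosomal protein genes. A nigericin EZH2 peak lay at 6 of the interferon response genes and at 2 of the NF-kB and LPS response genes, outside the kept peaks by the rule's own terms, since those genes had no untreated EZH2 peak in H3K27me3. Of 34 Polycomb genes, Bmi1 and Cbx8 had kept peaks (5.88%), and Epop and Cbx2 had lost peaks only. This count, too, is too small to set apart from the share of all protein-coding genes. Among genes of other lineages, 1 of 24 lymphoid genes (Lef1, a T-cell and Wnt effector) and 2 of 25 stromal and epithelial genes (Pdgfra and Epcam) had one, which are 4.17% and 8.0%, counts too small to set apart from the 3.29% of all protein-coding genes. Pdgfra, a receptor of mesenchymal cells, had 5.21 after nigericin, against 4.04 untreated.

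H3K27ac was nearly absent. The rule did not use this list, but it required H3K27me3, and a lysine cannot carry both marks. A low share is thus favoured by the rule, for kept and lost peaks alike. Of all untreated EZH2 peaks, only 42.3% lay in H3K27me3. It overlapped 3 of the 1460 kept peaks (0.205%, 0.0699 to 0.602%), against 26 of 2593 lost peaks (1.0%, 0.685 to 1.47%) and 2.21% of all untreated EZH2 peaks. The intervals of kept and lost peaks did not overlap. By the untreated summit alone, 1 kept peak (0.0685%, 0.0121 to 0.387%) and 20 lost peaks (0.771%, 0.5 to 1.19%) lay in H3K27ac. Within each class of untreated strength the intervals of these summit shares overlapped, as with 0 of 325 kept (0.0 to 1.17%) and 12 of 1401 lost peaks (0.491 to 1.49%) in the weakest class. In the classes up to a −log10 q of 5, lost peaks had 12, 3, 4 and 1 such summits and kept peaks 0 in each. From 5 to 10 neither had one, and at 10 and above 1 of 84 kept and 0 of 10 lost peaks did. These counts are too small to decide whether the difference holds at matched strength. The peak at Bmi1 overlapped an H3K27ac peak of fold 3.0, and its H3K27me3 fold of 4.1 was below the lower quartile of kept peaks, 7.3. The others were at Shc2, which encodes an adaptor of receptor tyrosine kinases, with an H3K27ac fold of 5.19, and a peak at no named gene at chr11:101139901-101140692. Both lists come from a population of cells, and whether both marks lay in the same cells was not tested.

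A p53 peak overlapped 3 kept peaks (0.205%, 0.0699 to 0.602%), 6 lost peaks (0.231%, 0.106 to 0.504%) and 2.41% of all untreated EZH2 peaks. The interval of the lost peaks lay inside that of the kept ones. Of the kept peaks with p53, 1 lay at the vomeronasal receptor pseudogene Vmn2r-ps17, 1 inside Mrs2 and 1 at no named gene at chr17:29107391-29108132, which all 4 SIRT1 lists also held. Of the 129 EZH2 peaks kept outside H3K27me3, 40.3% overlapped a p53 peak. Only 58 of the 4878 p53 peaks had a q of at most 0.05, and the cause of this overlap was not tested.

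SIRT1 peaks met kept peaks more often than lost ones, and this moved with width. In the Ezh2 knock out, SIRT1 peaks met 5.55% of kept peaks, 2.51% of lost peaks and 2.26% of all untreated EZH2 peaks. In its wild type they met 11.1% of kept, 7.56% of lost and 5.25% of all. In the p53 knock out they met 9.59% of kept, 5.51% of lost and 4.08% of all, and in its wild type 12.5% of kept, 6.63% of lost and 4.8% of all. The Ezh2 knock out list held 18087 SIRT1 peaks and its wild type 74346, nearly all with a q above 0.05, so shares cannot be compared between genotypes. At least 1 SIRT1 list met 29.8% of kept peaks (27.5 to 32.2%), against 19.1% of lost peaks (17.6 to 20.6%) and 13.5% of all. Under 500 bp wide, that share was 12.4% of kept (8.53 to 17.6%) and 12% of lost peaks (10.3 to 13.9%). Above 2000 bp it was 46.3% of kept (41.5 to 51.1%) and 53.3% of lost peaks (40.9 to 65.4%), and the intervals overlapped in each width class. By the summit alone, 8.01% of kept (6.73 to 9.52%) and 7.4% of lost peaks (6.46 to 8.48%) lay in a SIRT1 peak.

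Few of these SIRT1 peaks had a q of at most 0.05. Such peaks numbered 507 in the Ezh2 knock out, 247 in its wild type, 321 in the p53 knock out and 180 in its wild type. The counts below are single cases and are not compared between genotypes. In the Ezh2 knock out, 6 kept peaks met one, at Hoxc6, Nrxn2, Foxd4, Dlx1as, Mmp24 and the 5S rRNA pseudogene Rn5s-ps1, with SIRT1 folds of 4.85 at the first 5 and 4.2 at Rn5s-ps1. The SIRT1 −log10 q was 1.61 at all 6, near the limit of 1.3. None of the kept peaks met one in the Ezh2 wild type. In the p53 knock out 1 did, at Clmp, and in the p53 wild type 1, at Rn5s-ps1. All 4 SIRT1 lists met 4 kept peaks, at Slc32a1, which encodes the vesicular GABA transporter, Scrt1, Prob1 and the peak at chr17:29107391-29108132. At Slc32a1 the EZH2 fold was 4.2 after nigericin, against 3.22 untreated.

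The promoters under kept peaks were rich in CpG, and so were those under lost peaks. In windows of 300 bases, 250 before and 50 after the start, the 477 promoters that met a kept peak had a median of 21 CpGs (quartiles 14 and 30), and the 472 that met lost peaks only had 21 (12 and 32). The 4043 promoters in H3K27me3 without EZH2 had a median of 8, the 3578 in H3K27ac 13 and all 32619 promoters 7. Fewer than 5 CpGs were found in 5.24% of the kept set, 5.08% of the lost set and 37.7% of all. The median GC content was 64.3% in the kept set, 65.0% in the lost set and 53% in all.

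**Figure D5:**
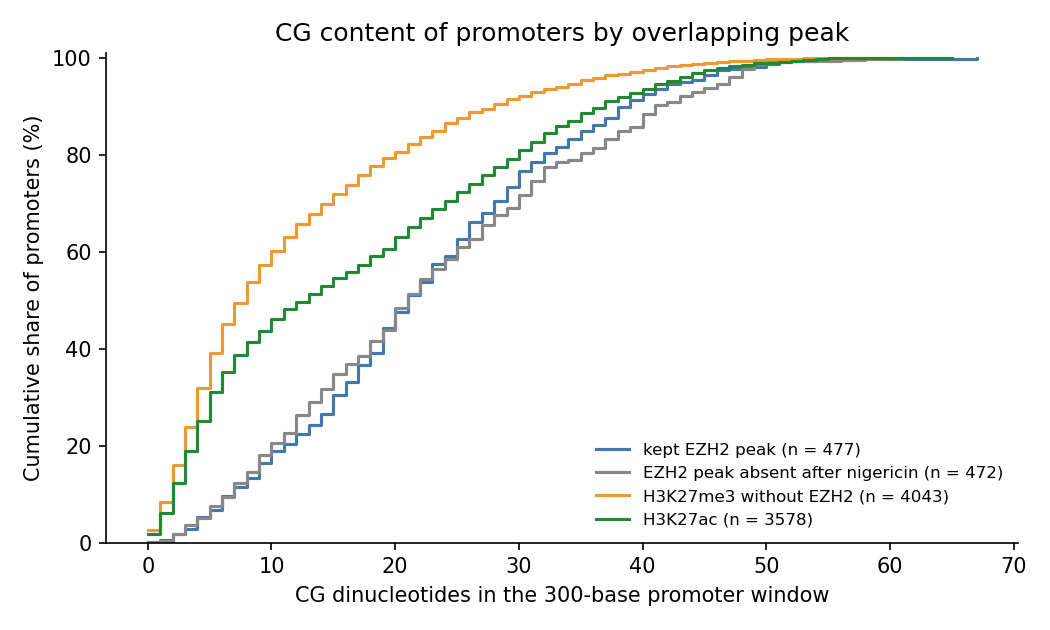
Cumulative share of promoters (vertical axis, percent) by the number of CG dinucleotides in the 300-base window (horizontal axis) for promoters that met a kept EZH2 peak, lost EZH2 peaks only, H3K27me3 without EZH2, or H3K27ac. The kept and lost lines run together with medians of 21, to the right of the lines for H3K27ac (13) and H3K27me3 without EZH2 (8).

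Short motifs were counted in the same windows on both strands, as a description of the letters and not of any factor. CGCG was present in 72.5% of the kept set (68.4 to 76.4%), 72.0% of the lost set (67.8 to 75.9%) and 38.3% of all promoters. TCCCGC, which can overlap a CpG run, was present in 39.8% of the kept set, 37.5% of the lost set and 20.1% of all. CACGTG was present in 6.08% of the kept set, 4.87% of the lost set and 7.2% of all. TATAAA was present in 10.3% of the kept set (7.86 to 13.3%), 5.51% of the lost set (3.79 to 7.95%) and 13.7% of all. The intervals of kept and lost sets overlapped for each of these motifs, for TATAAA only just. It can be read in the shown Olig2 promoter shortly before the start.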

How the data were processed

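ChIP-seq libraries of primary mouse macrophages (16 samples, 9 immunoprecipitations and 7 inputs) had been turned by the authors into 9 peak lists, 1 per library. The tools named are MACS2 and deepTools, with GRCm38/mm10 as the build, per the submitters' processing notes. The sources used here give no versions, aligner, read filter or read totals, and do not say which input was set against which library. The deposited fold column is the ratio of summit fragments to local background with 1 added to each, which lowers folds most where counts are small. The deposited −log10 columns give the p-value and q-value of each peak. The deposited score column is a multiple of one of these and was not used. From the values, the EZH2, p53 and SIRT1 lists were limited at p and the histone lists at q, so list lengths move with depth.

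Coordinates are 1-based. Peaks were compared by overlap of at least 1 bp with Python 3.11.15, pandas 2.3.3, NumPy 2.4.6 and SciPy 1.17.1, and shares have Wilson intervals at 95%. Fragments at the summit were solved from the deposited fold and −log10 p under the caller's Poisson model, and came out whole within 0.0001 for 100% of EZH2 peaks. Overlap and solver were tested on simulated data. Genes came from RefSeq (GRCm38.p6), with 49554 genes and 32619 promoter windows. That table gives no exons, so exons and introns were not told apart. A gene's values are those of its kept peak with the highest untreated fold unless a peak is named. The members, the gene lists and the motifs were chosen with earlier results of these data known. Genes named were the 20 highest kept peaks in each EZH2 library, the 10 highest and 10 lowest fold ratios at a q of at most 0.05 in both, peaks with H3K27ac, p53 or several SIRT1 lists, up to 6 genes per list, the largest clusters and the peaks nearest the 1 bp limit. Genes named for having lost peaks only, for microRNA or for SIRT1 at a q of at most 0.05 were chosen after their values were seen.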

Additional observations from a re-analysis of the deposited data

How the results depend on the processing

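The 8 results were recomputed under alternatives. Of 45 values, 19 stayed within the counting interval of the value reported (a count of genes, within 1.5 times) and 26 moved out of it, and the cause was not tested. The share of untreated EZH2 peaks in H3K27me3 that were kept was 36.0%. It was 27.2% at a q of at most 0.05 in both lists, 82.4% at an untreated −log10 q of at least 5, 38.1% with that limit on the histone lists, 31.6% with an overlap of 50% of the shorter peak and 44.0% with lists of equal length. The median fold ratio of 0.918 was 0.982, 0.666, 0.895 and 0.87 at a q of at most 0.05 in both, the untreated limit, the 50% overlap and equal length. Limiting both lists at this q before pairing gave 407 kept peaks. Pairing first gave the 400 peaks described above, with a median ratio of 0.986. Over the 407, the interval of the median ratio, 0.938 to 1.02, spanned 1. Over pairs with summits within 500 bp, chosen after seeing the data, it was 0.888. The share at a gene's start or end, 67.9%, was 77.1% at a q of at most 0.05 in both, 86.5% under the untreated limit, 70.6% with the 50% overlap and 92.1% with a window of 5 kb. The share with any SIRT1 list, 29.8%, was 43.0% at a q of at most 0.05 in both and 44.4% under the untreated limit. H3K27ac and p53 were each at 0.0691% under the histone limit. The p53 share was 0.0% at a q of at most 0.05 in both and 0.0% under the untreated limit. By the summit alone, an alternative chosen after seeing the data, H3K27ac was at 0.0685%, p53 at 0.0%, SIRT1 at 8.01% and gene starts or ends at 54.9%. At a q of at most 0.05 in both, 67 developmental genes of 234 had a kept peak in place of 121, and the median CpG count was 19 in place of 21. Leaving out peaks in p53 and all 4 SIRT1 lists left 1459 of the 1460 kept peaks, so the set was nearly unchanged. None of the 6 results recomputed left its interval, which was to be foreseen, and these 6 are among the 19 values that stayed.

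No paired analysis was possible because each group held 1 library. With 1 library no difference between conditions can be separated from library depth or antibody yield, and a peak missing from the shorter nigericin list is not shown to be absent from the cells.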
